A study of Mus musculus with 8 samples.

Results

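The ERK feedback genes were followed in mouse acute myeloid leukemia (AML) cells driven by MLL-AF9, a fusion of KMT2A (also called MLL) with MLLT3 (AF9). Their 10 names are Etv4, Etv5, Spry1, Spry2, Spred1, Spred2, Dusp4, Dusp5, Dusp6 and Phlda1, and they were found by gene name among the 12823 rows of the count table. Rows exist for 9 of them, while Dusp4 has no row and was not analysed here. Etv4 was chosen by its read counts, which are higher in aggressive AML than in new AML, so that its own values are given as a description without a test. The other names were taken as ERK-induced ETS factors and inhibitors of the same pathway, with Phlda1 as a further gene of ERK output. They too were listed with earlier results of these data known.

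Poly(A) RNA was sequenced from sorted GFP-positive cells of bone marrow in 8 libraries. New AML (4 libraries) stands for bone marrow progenitors that were transduced with a retrovirus carrying MLL-AF9 and GFP and had grown to leukemia in sublethally irradiated mice. Aggressive AML (4 libraries) stands for such leukemia cells after 5 serial transplantations into non-irradiated mice. The recipients were adult C57BL/6 mice, all of the cells carry the transgene, and no untransformed cells are among the samples. The labels call the replicates biological but do not say which came from separate mice or give a sequencing batch, so that a batch that follows the groups and the groups themselves cannot be told apart.

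ERK is the last kinase of the cascade that runs from receptor tyrosine kinases and cytokine receptors through RAS, RAF and MEK. Active ERK induces genes that carry its signal onward, such as the PEA3 group of ETS transcription factors, and genes that switch the cascade off again. Sprouty and Spred proteins restrain the activation of RAS and RAF, and dual-specificity phosphatases (Dusp) remove the activating phosphates from ERK. The level of these messages is widely read as an output of the cascade, and mutations of RAS genes are common companions of KMT2A fusions in acute leukemia.

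Total counts ranged from 7805544 to 9697777 per library. The labelled cell type was checked against Hoxa9, Meis1, Ptprc, Itgam, Mpo, Elane and Ctsg, and all 7 of these myeloid leukemia markers had a row. The 6 NK cell markers and the 6 stroma and endothelium markers examined had no row. The 12 neutrophil markers all had rows and summed to 364.2 to 581.2 counts-per-million (CPM) in new AML and to 211.9 to 261.5 CPM in aggressive AML. In the edgeR test 8 of them were called lower and 0 higher, where 10.2% of all tested genes were called lower and 8.15% higher. The 9 erythroid markers with a row summed to 28.4 to 101.9 CPM against 10.6 to 54.2 CPM. Y-linked genes, represented by Ddx3y, Eif2s3y, Kdm5d and Uty, had 2315 to 2574 counts per new AML library and 0 counts in each aggressive AML library, so that the groups also differ in Y-linked RNA. The study describes male mice and aggressive AML cells grown from the new AML cells, and the source of this difference was not tested. Serial transplantation and whatever else set the groups apart therefore cannot be told apart in any fold change given here. New AML replicate 3 held 230.7 CPM of Fos and 213.1 CPM of Fosb, both immediate early genes, where the remaining new AML libraries had 32.2 to 66.5 and 5.13 to 18.9 CPM. The part of these differences in the results on ERK feedback genes was not tested. In bulk RNA, fewer cells of a type and less RNA per cell cannot be told apart.

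The promoters of the members were read from RefSeq windows of 300 bases around each annotated start (GRCm38.p6, the same build as mm10). A window was found for 7 of the 10 genes, with 2 starts for Etv5 and so 8 windows in all, and none for Etv4, Dusp4 and Phlda1. The stretches shown hold matches to TGAATG, the first 6 bases of the sequence bound by capicua (Cic), the repressor that holds PEA3 genes silent when ERK is inactive, or to the CArG box bound by serum response factor (Srf). These matches are in capitals, and each stretch gives the 250 bases before the start, 5′ to 3′ on the strand of the gene. They are the second annotated start of Etv5 (chr16:22438369-22438618, minus strand), Dusp5 (chr19:53528895-53529144, plus strand) and Dusp6 (chr10:99262981-99263230, plus strand).
Etv5: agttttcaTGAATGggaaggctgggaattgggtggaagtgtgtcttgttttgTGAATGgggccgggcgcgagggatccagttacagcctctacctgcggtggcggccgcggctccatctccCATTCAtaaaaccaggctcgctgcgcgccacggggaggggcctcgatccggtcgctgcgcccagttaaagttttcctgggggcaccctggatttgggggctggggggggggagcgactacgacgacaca
Dusp5: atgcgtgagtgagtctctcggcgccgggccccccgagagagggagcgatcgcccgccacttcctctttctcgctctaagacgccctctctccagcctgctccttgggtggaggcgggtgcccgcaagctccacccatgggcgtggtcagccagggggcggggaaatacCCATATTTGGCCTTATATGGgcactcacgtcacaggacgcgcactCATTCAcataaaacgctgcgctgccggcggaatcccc
Dusp6: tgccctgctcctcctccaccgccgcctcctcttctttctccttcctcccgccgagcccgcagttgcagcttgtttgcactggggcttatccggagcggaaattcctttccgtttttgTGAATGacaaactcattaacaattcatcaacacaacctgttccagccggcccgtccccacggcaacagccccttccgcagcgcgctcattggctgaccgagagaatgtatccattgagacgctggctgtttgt

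The Etv5 stretch held 3 matches to TGAATG on either strand, beginning 242, 198 and 129 bases before the start. At least 3 such matches occurred in 56 of 32851 windows, or 0.17%, and at least 1 in 12.7%. Dusp5 and Dusp6 had 1 match each. The CArG box occurred in 1.63% of windows, and Dusp5 held 2 of them side by side in the run of capitals that begins 82 bases before its start, a number that 0.0183% of windows reached. The ETS motif CGGAAG, present in 16.9% of windows, had 2 matches in the Spred1 window and 1 each in those of Spred2 and Dusp6. The AP-1 motif TGANTCA (7.81% of windows) and the cAMP response element TGACGTCA (1.79%) had no match in the 8 windows, and neither did any of the 5 motifs in the windows of Spry1, Spry2 and the first start of Etv5. None of the 5 motifs overlapped another in these windows. A match is a description of letters, and read counts per gene do not show from which start Etv5 was transcribed.

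**Figure D1:**
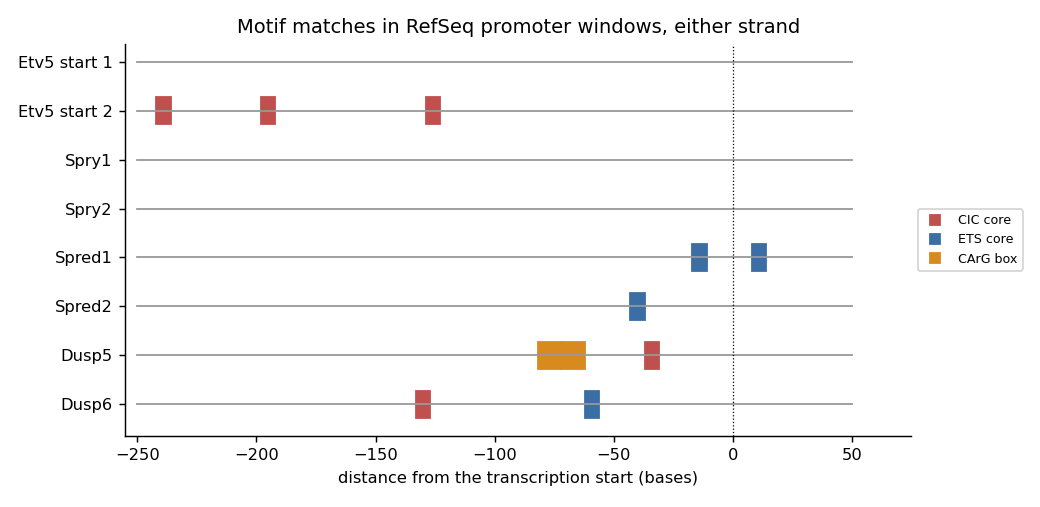
Motif matches (coloured boxes, to scale) in the 8 RefSeq promoter windows of the members, against the distance from the transcription start in bases, with the start at the dotted line. The window of the second Etv5 start holds 3 CIC core matches and that of Dusp5 holds 2 adjoining CArG boxes and 1 CIC core.

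The PEA3 factors Etv4 and Etv5 were both higher in aggressive AML. Etv4 (chromosome 11, 101769747 to 101785310, GRCm38) encodes an ETS transcription factor that is induced by ERK in many tissues. It measured 3.08, 2.74, 4.24 and 3.34 CPM in new AML replicates 1 to 4 and 18.6, 22.5, 17.6 and 15.1 CPM in aggressive AML replicates 1 to 4, from 23 to 38 counts and from 133 to 191 counts per library. The lowest aggressive AML library thus lay far above the highest new AML library. The means were 3.35 ± 0.643 CPM and 18.5 ± 3.06 CPM (SD, n = 4), which corresponds to a 5.49-fold higher level (log2 fold change 2.46, SE 0.19). Among the 9479 tested genes whose mean reached 10 CPM in either group, this fold change ranked 5th from the top. Etv4 was chosen for its rise and reached 10 CPM only in aggressive AML, so its high rank follows from the choice.

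Etv5 (chromosome 16, 22381313 to 22439570), the closest relative of Etv4 among the members, measured 18.1, 15.3, 16.0 and 13.2 CPM in new AML and 29.5, 29.3, 22.2 and 29.4 CPM in aggressive AML. All aggressive AML libraries lay above all new AML libraries, and replicate 3 stood below the rest of its group. Etv5 rose from 15.6 ± 2.02 to 27.6 ± 3.62 CPM (SD, n = 4), a 1.77-fold increase (log2 fold change 0.82, SE 0.14, adjusted p = 0.000749 in the edgeR quasi-likelihood test with Benjamini-Hochberg adjustment). Its call held in each of the 8 fits that left out 1 library. Etv1, the third PEA3 gene, has no row.

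**Figure D2:**
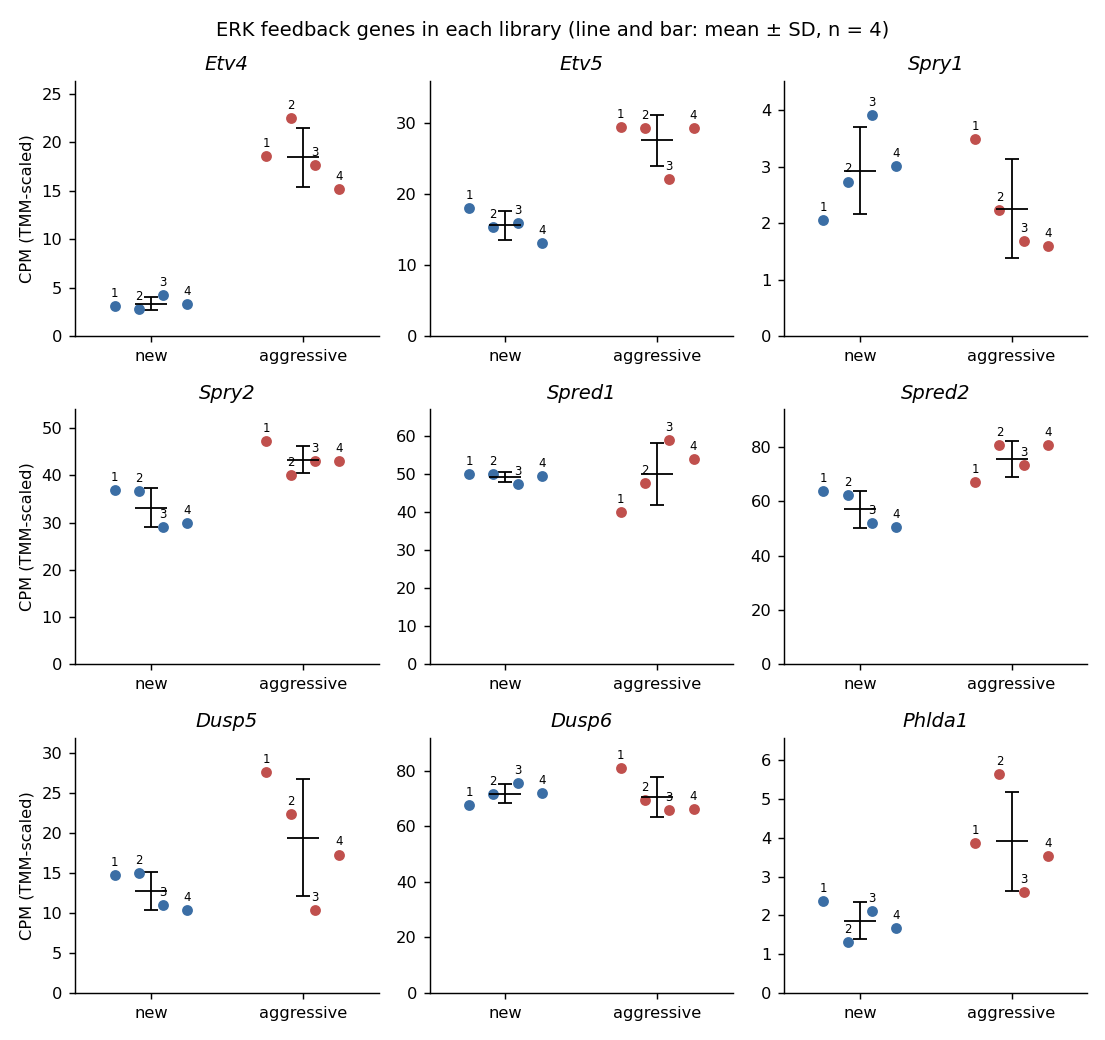
CPM after TMM scaling (trimmed mean of M values) of the 9 members with a row in each library, numbered by replicate, with the mean and SD of each group of 4 as a line and bar. The groups are separate for Etv4, Etv5, Spry2, Spred2 and Phlda1, and overlap for Spry1, Spred1, Dusp5 and Dusp6.

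Of the 8 members with a row other than Etv4, 4 were called higher in aggressive AML (Etv5, Spry2, Spred2 and Phlda1) and 0 lower, at an adjusted p under 0.05. Among all 12494 tested genes 8.15% were called higher and 10.2% lower. Because the members were listed with earlier results of these data known, the shares are no independent comparison. The same 4 members were those whose groups did not overlap with aggressive AML on top, against 9.76% of all tested genes. The median log2 fold change of these 8 members was 0.39, beside 0.00044 over all tested genes. limma and DESeq2 likewise called 4 of them higher and 0 lower. At an unadjusted p under 0.05 in the edgeR test there were 5 higher and 0 lower. Of all 12494 tested genes, 4070 passed that unadjusted threshold in either direction. Without new AML replicate 4 or the first aggressive AML replicate, 2 members were called higher, 3 were called without new AML replicates 2 or 3 or the second aggressive AML replicate, and 5 were called when the third was left out.

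Among the Sprouty and Spred inhibitors, Spry2 and Spred2 rose in aggressive AML, and Spry1 and Spred1 were not called. Spry2 (chromosome 14, 105891947 to 105896819), an inhibitor of signalling from receptor tyrosine kinases to RAS, measured 36.9, 36.7, 29.1 and 30.0 CPM in new AML and 47.2, 40.1, 43.0 and 43.0 CPM in aggressive AML. The gap between the groups, from 36.9 to 40.1 CPM, was narrow. The log2 fold change was 0.39 (SE 0.11, adjusted p = 0.024, a 1.31-fold increase). The call was lost without new AML replicate 3 (adjusted p = 0.0615), without new AML replicate 4 (0.0762) or without aggressive AML replicate 1 (0.0727), and the adjusted p ranged from 0.00971 to 0.0762 over all alternatives.

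Spred2 (chromosome 11, 19924442 to 20024026), whose product joins the RAS inactivator neurofibromin to the membrane, measured 63.7, 62.3, 52.1 and 50.4 CPM in new AML and 67.1, 80.8, 73.2 and 80.8 CPM in aggressive AML. It rose from 57.1 ± 6.83 to 75.5 ± 6.64 CPM (SD, n = 4), or by 0.40 on the log2 scale (SE 0.10, adjusted p = 0.0122), and its call held in each of the 8 fits that left out 1 library. Its relative Spred1 (chromosome 2, 117121071 to 117182279) measured 50, 50.1, 47.3 and 49.6 CPM in new AML and 40.0, 47.7, 58.8 and 53.8 CPM in aggressive AML. The new AML libraries lay close together, whereas the aggressive AML libraries spread to both sides of them. The log2 fold change of Spred1 was 0.02 with a 95% confidence interval from -0.21 to 0.26 (adjusted p = 0.903).

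Spry1 (chromosome 3, 37639947 to 37644599), a Sprouty protein like Spry2, was near the lower end of detection, with 20 to 35 counts per new AML library and 13 to 29 per aggressive AML library. It measured 2.05, 2.74, 3.905 and 3.01 CPM in new AML and 3.49, 2.24, 1.68 and 1.59 CPM in aggressive AML, so that the groups overlapped. The log2 fold change was -0.37 with a 95% confidence interval from -1.07 to 0.32 (adjusted p = 0.462). The span of Spry1 overlaps Gm42922 on the opposite strand, and since the strand setting of the counting is not given, reads of the pair could not be separated.

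Neither of the phosphatases was called. Dusp6 (chromosome 10, 99263231 to 99267489), the cytoplasmic phosphatase that is specific for ERK, had the highest mean level per length in both groups. It measured 67.6, 71.5, 75.7 and 72.1 CPM in new AML and 81.1, 69.6, 65.7 and 66.2 CPM in aggressive AML, with overlap between the groups and the highest value in aggressive AML replicate 1. Its log2 fold change was -0.02, and the 95% confidence interval from -0.21 to 0.17 leaves out changes of the size seen in Etv5 (adjusted p = 0.893). Dusp5 (chromosome 19, 53529145 to 53541809), a nuclear phosphatase of ERK, measured 14.7, 15.0, 11.04 and 10.4 CPM in new AML and 27.6, 22.4, 10.4 and 17.3 CPM in aggressive AML. In aggressive AML 3 libraries lay above all of new AML, but replicate 3 lay at the level of the lowest new AML library. Dusp5 was not called (log2 fold change 0.61, SE 0.24, 95% confidence interval from 0.10 to 1.11, adjusted p = 0.0863), and it was called without aggressive AML replicate 3 (log2 fold change 0.81, adjusted p = 0.00516, within a range of 0.00516 to 0.282 over all alternatives). Its span overlaps an antisense gene, AC137853.2, which could share its reads.

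Phlda1 (chromosome 10, 111506286 to 111508649), which encodes a pleckstrin homology-like protein and is commonly included in ERK output signatures, was among the least abundant members per length. It measured 2.36, 1.31, 2.1196 and 1.67 CPM in new AML, from 11 to 23 counts, and 3.86, 5.66, 2.59 and 3.53 CPM in aggressive AML, from 20 to 48 counts. The groups did not overlap, and the gap between them, from 2.36 to 2.59 CPM, was small. Phlda1 rose 2.08-fold (log2 fold change 1.06, SE 0.31, adjusted p = 0.029). The call was lost without new AML replicates 2 or 4 (adjusted p = 0.0918 and 0.0735) and without aggressive AML replicates 1 or 2 (0.0533 and 0.103), within a range of 0.0138 to 0.103 over all alternatives. Phlda1 overlaps the long noncoding RNA gene Gm28592 on the opposite strand.

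Levels of different genes were compared as CPM per kilobase of exon. In new AML the order was Dusp6 (22.9 ± 1.07), Spry2 (15.9 ± 2.01), Spred2 (12.4 ± 1.48), Spred1 (7.26 ± 0.193), Dusp5 (5.16 ± 0.971), Etv5 (3.81 ± 0.493), Etv4 (1.08 ± 0.207), Spry1 (1.01 ± 0.264) and Phlda1 (0.846 ± 0.212) CPM per kilobase (SD, n = 4). The ranges of Dusp5 and Etv5 overlapped, as did those of Etv4, Spry1 and Phlda1, and the other neighbours were apart. In aggressive AML, Etv4 reached 5.95 ± 0.986 and Etv5 6.73 ± 0.883 CPM per kilobase, with ranges of 4.88 to 7.25 and 5.40 to 7.20, so that their levels overlapped where in new AML Etv5 had been the higher of the pair. The ranges of Dusp5 and Spred1 overlapped with theirs, Dusp6 (21.0 to 25.9) overlapped with Spry2 (19.2 to 22.6), and Spred2 lay below them at 14.5 to 17.5. Phlda1 (1.18 to 2.56) and Spry1 (0.548 to 1.20) were lowest and barely overlapped. With the longest transcript as the length, Etv4 came to 7.71 and Etv5 to 6.94 in aggressive AML, which reverses their order.

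**Figure D3:**
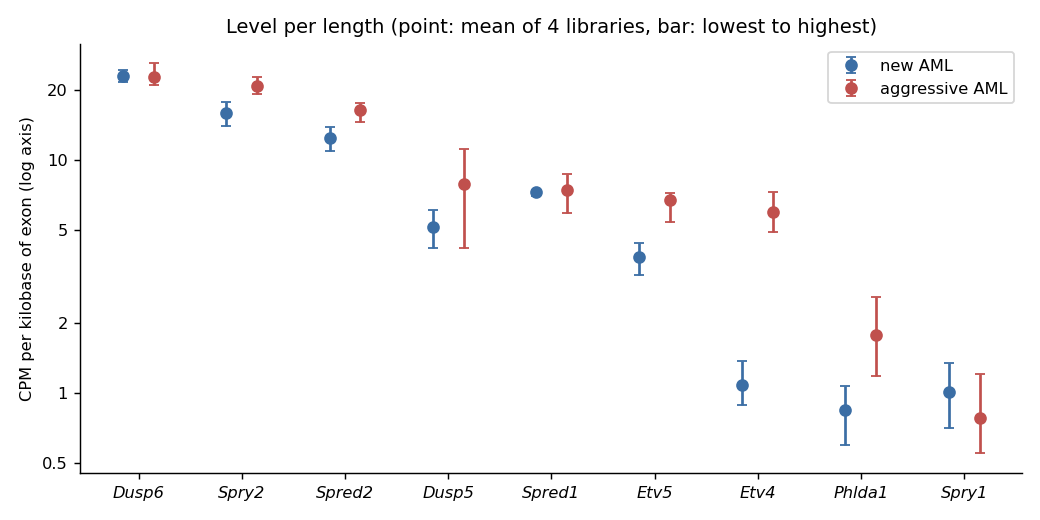
Level of each member as CPM per kilobase of exon on a log axis, with the mean of the 4 libraries of a group as a point and the lowest to highest library as a bar. Etv4 lies near Spry1 and Phlda1 in new AML, at 1.08, and near Etv5 in aggressive AML, at 5.95.

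Variation inside the groups, which the choice of Etv4 did not use, was compared between members as Pearson's r of the deviations of log2 CPM from the group mean over the 8 libraries. These values are a description, since the libraries share their depth and preparation. Of the 36 pairs 22 had a positive r and 14 a negative one, with a median of 0.16. Spry1 and Dusp6 deviated together (r = 0.97, Spearman's rho = 0.88, and r = 0.97 without the 2 libraries most extreme for Spry1). Spred1 went opposite to Dusp6 (r = -0.91, rho = -0.88, and -0.73 without the 2 libraries most extreme for Spred1). Aggressive AML replicate 1 had the highest Dusp6 and Spry1 and the lowest Spred1 of its group. For Etv4 and Etv5 the value was near 0 (r = 0.05, rho = -0.07). Etv5 and Dusp5 had an r of 0.79 (rho = 0.67), which was 0.20 without the 2 libraries most extreme for Etv5. Both genes were at the bottom of their group in aggressive AML replicate 3.

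**Figure D4:**
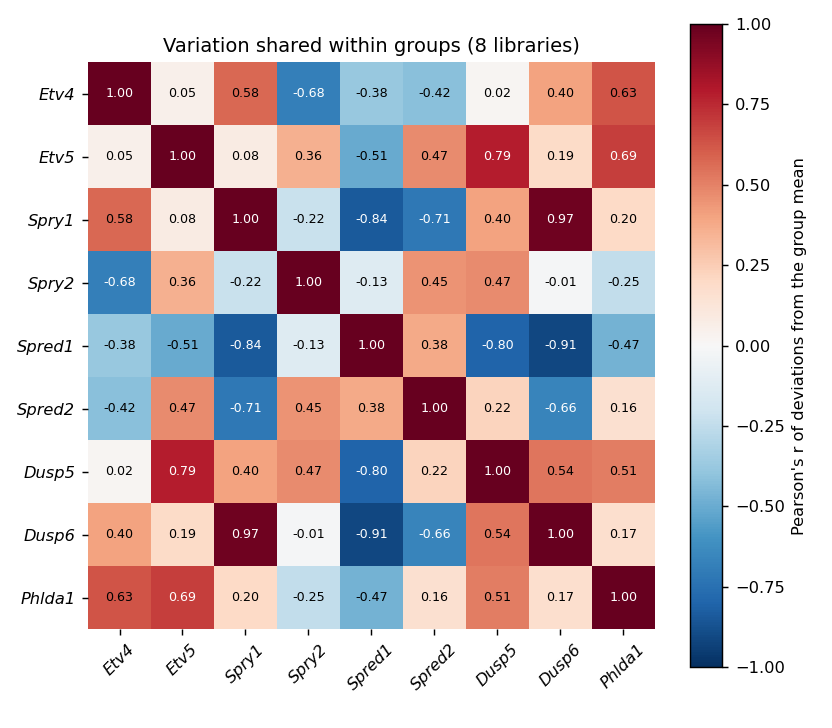
Pearson's r between members, for deviations of log2 CPM from the group mean over 8 libraries, with red for a shared direction and blue for opposite directions. The highest value is 0.97 for Spry1 and Dusp6, and the lowest is -0.91 for Spred1 and Dusp6.

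The other genes of the cascade were examined in 8 lists with 98 names, of which 87 were tested. In them 13 genes were called higher and 13 lower, or 26 of 87, where 18.4% of all tested genes were called in either direction. By direction, 8.15% of all tested genes were called higher and 10.2% lower, and these shares stand beside the counts of each list below. The median log2 fold change of the 87 genes was -0.04. These lists were also chosen with earlier results of these data known. The 13 called higher include Fosl1, which passed the filter of 1 CPM in 4 libraries only through the aggressive AML libraries.

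At the receptor level, 3 of 20 genes rose and 5 fell. Igf1r, the receptor of insulin-like growth factor 1, rose from 61.5 ± 5.94 to 141 ± 16.5 CPM (log2 fold change 1.20, adjusted p = 1.19e-06), and Kit, the receptor of stem cell factor, rose from 105.5 ± 18.3 to 165.1 ± 17.5 CPM (adjusted p = 0.0014). The RAS exchange factor Sos2 rose from 67.5 ± 4.67 to 95.01 ± 10.3 CPM (adjusted p = 0.00195). Csf1r, the receptor of macrophage colony-stimulating factor, fell from 166.2 ± 28.4 to 51.2 ± 6.42 CPM (log2 fold change -1.70, adjusted p = 3.76e-07), Csf3r, the receptor of granulocyte colony-stimulating factor, fell from 115.6 ± 11.2 to 69.8 ± 6.26 CPM (adjusted p = 8.30e-05), and Csf2rb2 fell from 40.7 ± 4.60 to 24.6 ± 2.46 CPM (adjusted p = 0.000541). Csf2rb2 is a close copy of Csf2rb and its reads may be split between them. Csf1r and Csf3r are also found on mature myeloid cells, and 8 of 12 neutrophil markers fell in the same libraries. The 5 macrophage markers with a row summed to 82.9 to 145.6 CPM in new AML and to 56.0 to 90.9 CPM in aggressive AML, with 1 of 4 tested called lower (Adgre1, log2 fold change -0.83, adjusted p = 0.00245) and 0 higher. The part of those cells was not tested.

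Of 18 tested genes from RAS to ERK and its RSK targets, 1 rose and 1 fell. The RAS activator Rasgrp4 fell from 41.0 ± 6.87 to 21.2 ± 3.48 CPM (log2 fold change -0.95, adjusted p = 0.000336). Rps6ka2, a kinase activated by ERK, was called higher (log2 fold change 0.39, adjusted p = 0.0301), but without new AML replicates 1, 2 or 3 or aggressive AML replicates 1 or 4 the adjusted p lay between 0.0596 and 0.0916. Mapk3, which encodes an ERK kinase (log2 fold change -0.10, SE 0.09), and the MEK genes Map2k1 (-0.13, SE 0.09) and Map2k2 (0.00496, SE 0.074) were not called. RNA levels do not show whether ERK was phosphorylated.

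Among 9 RAS GTPase-activating proteins, which switch RAS off, 1 rose and 2 fell. Rasa4 fell from 178.5 ± 10.8 to 108.1 ± 14.8 CPM (adjusted p = 0.00011) and Rasa3 from 241.4 ± 15.8 to 159 ± 6.80 CPM (adjusted p = 5.20e-05). Rasa2 was called higher (log2 fold change 0.53, adjusted p = 0.0136) but not without new AML replicate 4 (0.0503) or aggressive AML replicate 2 (0.051), within a range of 0.00265 to 0.051 over all alternatives. Nf1, which encodes neurofibromin, was not called (0.06 on the log2 scale, SE 0.14, adjusted p = 0.81). Of 6 other brakes of receptor and RAF signalling, 0 were called in the edgeR test and 0 in limma or DESeq2. At an unadjusted p under 0.05 in the edgeR test, 2 were higher and 1 lower, where 4070 of all 12494 tested genes passed in either direction. Spry4, the sprouty gene outside the member list with a row, measured 2.19 ± 0.747 and 3.59 ± 0.51 CPM and was not called (0.70 on the log2 scale, SE 0.29, adjusted p = 0.107).

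Of 6 other MAP kinase phosphatases, 1 rose and 1 fell. Dusp9, like Dusp6 a cytoplasmic phosphatase that prefers ERK, measured 1.75, 1.78, 2.45 and 1.78 CPM in new AML and 6.51, 6.72, 5.57 and 4.44 CPM in aggressive AML. The groups did not overlap, and the gene was called higher (1.57 on the log2 scale, SE 0.26, adjusted p = 0.000595). Dusp7, the remaining gene of that subfamily, fell from 91.0 ± 10.4 to 62.7 ± 11.4 CPM (adjusted p = 0.00644). Within this subfamily Dusp9 was thus called higher, Dusp7 lower and Dusp6 in neither direction.

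Of 13 other ERK-induced genes, 4 rose and 1 fell, where 8.15% of all tested genes were called higher and 10.2% lower. Fosl1, an AP-1 subunit that lasting ERK activity induces, had 0, 3, 3 and 2 counts in new AML and 10, 34, 14 and 14 in aggressive AML. The ratio of the summed counts, scaled by library size, was 9.76 with a 95% exact interval from 4.70 to 23.5 that covers counting error only. Fosl1 passed the filter of 1 CPM in 4 libraries only through the aggressive AML libraries, and it was no longer tested when any 1 of those was left out, so that its place among the 4 genes follows in part from the filter. Maff, a small Maf factor, rose from 4.54 ± 1.15 to 10.3 ± 2.79 CPM (adjusted p = 0.00336), and Plaur, the urokinase receptor, from 32.3 ± 1.13 to 50.4 ± 7.23 CPM (adjusted p = 0.000959). Ier3 was the remaining gene that rose (adjusted p = 0.0463). Epha2, an ephrin receptor, fell from 37.1 ± 3.16 to 26.6 ± 1.73 CPM (adjusted p = 0.00506). The immediate early genes Fos, Fosb and Egr1 were not called (adjusted p = 0.111, 0.541 and 0.923).

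The regulators of the PEA3 genes and of early ERK targets moved in both directions. Of 10 tested repressors and degraders of PEA3 factors, 2 rose and 2 fell. Cic measured 255, 240.0, 205.4 and 229.5 CPM in new AML and 170.0, 175.2, 186.1 and 182.1 CPM in aggressive AML, so that all aggressive AML libraries were lower. It fell from 232.5 ± 20.9 to 178.4 ± 7.16 CPM (log2 fold change -0.38, SE 0.08, adjusted p = 0.00324). Atxn1, whose product binds capicua and acts with it as a corepressor, rose from 6.53 ± 0.669 to 16.1 ± 3.89 CPM (log2 fold change 1.30, adjusted p = 0.000214), and Atxn1l, a relative of Atxn1, had a log2 fold change of 0.12 (adjusted p = 0.427). Trib1, a pseudokinase that brings substrates to the ubiquitin ligase COP1, rose from 8.96 ± 4.47 to 21.5 ± 7.94 CPM (adjusted p = 0.0104) with overlap between the groups. Spop, a substrate receptor of a ubiquitin ligase, fell from 245.8 ± 11.2 to 189 ± 15.4 CPM (adjusted p = 0.00294). In the list of Srf and its partners 1 of 5 rose and 1 fell, with Elk3 at 142.4 ± 12.4 and 201.3 ± 13.4 CPM (adjusted p = 0.000657) and Mkl1, listed today as Mrtfa, at 112.4 ± 12.1 and 77.7 ± 12.4 CPM (adjusted p = 0.00394).

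**Figure D5:**
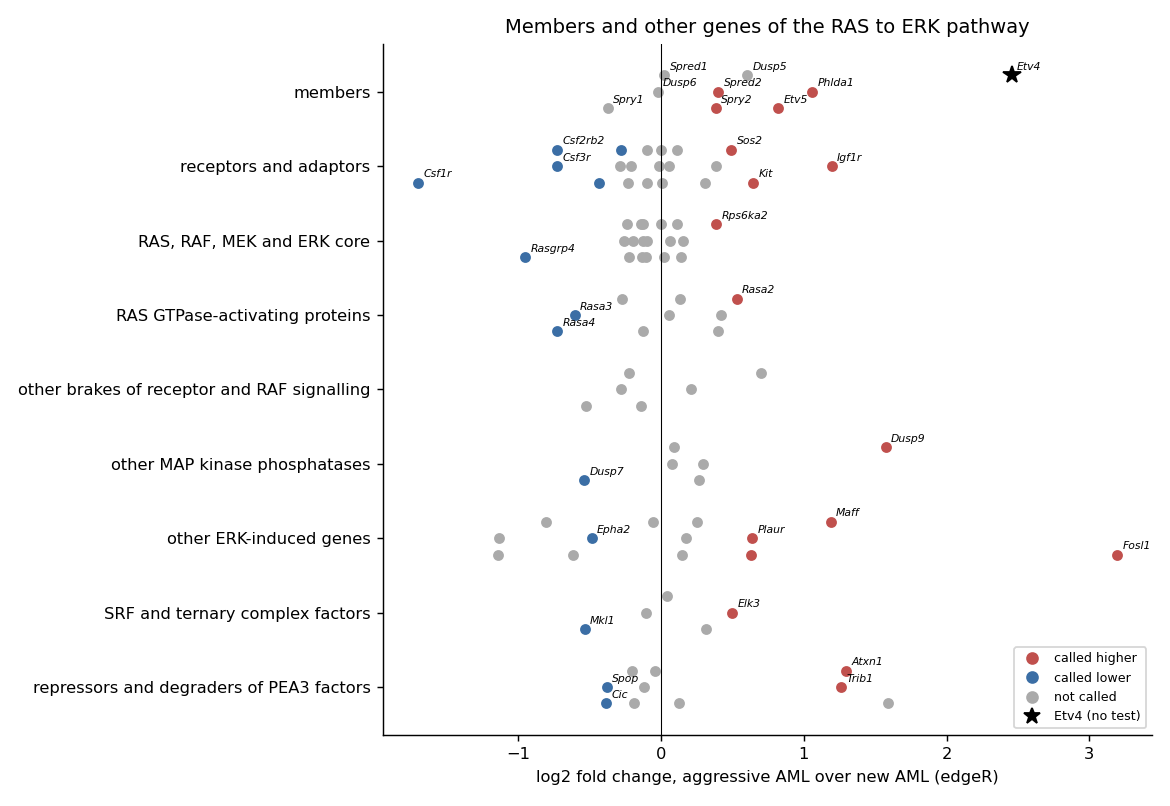
Log2 fold change of aggressive AML over new AML for the 9 members and the 87 tested genes of 8 pathway lists, with red for genes called higher, blue for genes called lower, grey for genes not called and a star for Etv4, which has no test. The members lie between -0.37 (Spry1) and 2.46 (Etv4), and the fitted value of Fosl1 depends on the prior count because its new AML libraries hold at most 3 counts each.

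The genes with the pattern most like Etv4 were searched over the 8 libraries as Pearson's r of log2(CPM + 1), among the 9478 other genes whose mean reached 10 CPM in either group. They were Sec16b (r = 0.996), Fam169b (0.993), Gm15453 (0.992), Ppfibp1 (0.99) and Gem (0.988). Sec16b, which acts in export from the endoplasmic reticulum, measured 8.80 ± 1.97 CPM in new AML and 36.5 ± 3.46 CPM in aggressive AML. Such an r mostly reflects the difference between the groups, and for deviations from the group means it was 0.89 for Sec16b and between 0.58 and 0.87 for the other genes. These genes were picked by their r over the same 8 libraries, so their r within the groups is not separate evidence of likeness. Sec16b and Fam169b reached a mean of 10 CPM only in aggressive AML. Of the members whose mean reached 10 CPM in either group, Etv5 had the highest r over all libraries (0.91, rank 229), and within the groups its r was 0.058. Spry2 and Spred2 had an r of 0.77 and 0.79 over all libraries and of -0.65 and -0.38 within the groups.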

How the data were processed

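Poly(A) RNA of GFP-positive leukemia cells was sequenced from both ends in 8 libraries. The authors aligned the reads to mm10 with HISAT2, counted them per gene with Rsubread and filtered genes at 1 CPM. The annotation and strand setting are not given in the sources used here. The deposited values are whole-number read counts with a different total in each library, although the table is named for CPM, and each of its 12823 rows reaches 1 CPM in at least 3 libraries.

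Groups and replicate numbers came from the sample labels. Rows that reached 1 CPM in 4 or more libraries were tested (12494 rows), with TMM scaling, the edgeR quasi-likelihood test (version 4.0.16, R 4.3.3) on the group alone and Benjamini-Hochberg adjustment over all of them at a threshold of 0.05. The study used limma on log2 CPM, and limma (3.58.1) and DESeq2 (1.42.0) are alternatives here, with other scalings and filters and with each library left out. No library was a duplicate of another by its counts (chi-square per degree of freedom 4.07 to 11.1 between replicates). P-values set the difference between the groups against the spread between these libraries, which are not known to come from separate mice. In CPM, 1 count was worth 0.103 to 0.128.

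Exon length is the union of exons in GENCODE M21, and positions and promoter windows are from RefSeq, all on GRCm38. Log2 CPM used a prior count of 2. The members and lists were chosen with earlier results of these data known. Named genes are the members, at most 3 called genes per list and direction with the smallest adjusted p, and the 5 genes most like Etv4. Other genes were named after their values were seen. Lists were described by counts, with no set test.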

Additional observations from a re-analysis of the deposited data

Results flagged for a closer look

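By the 95% critical value of Dixon's test, 4 of 64 groups of 4 libraries (1 named gene in 1 group each) held a library far from the others, where chance gives about 1 in 20. Etv5 measured 22.2 CPM in aggressive AML replicate 3, and the other 3 libraries of that group lay between 29.3 and 29.5 CPM. Spred1 measured 47.3 CPM in new AML replicate 3 against 49.6 to 50.1 CPM in the rest. Kit measured 138.9 CPM in aggressive AML replicate 2 against 172.6 to 174.6 CPM, and Dusp9 2.45 CPM in new AML replicate 3 against 1.75 to 1.78 CPM.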

How the results depend on the processing

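Over 457 refits of single named genes other than Etv4, 435 kept their direction and their side of the threshold, 15 lost the call, 2 gained one and 5 changed sign. The sign changes were in members near 0 that were never called: leaving out 1 library moved the log2 fold change of Dusp6 between -0.0918 and 0.0162 (above 0 without new AML replicate 3, at 0.00475, and without aggressive AML replicates 3 or 4, at 0.0157 and 0.0162) and that of Spred1 between -0.0567 and 0.12 (below 0 without aggressive AML replicates 3 or 4, the latter at -0.0046). Leaving out 1 library moved the members called higher between 2 and 5 (4 in the full set), the pathway genes called higher between 10 and 15 and called lower between 12 and 15, and all called genes between 1466 (without new AML replicate 2) and 2324. The cause of these shifts was not tested, and each such fit holds fewer libraries. RLE or no scaling, both filters, limma and DESeq2 called 3 or 4 members higher, with 3 under the stricter filter of 5 CPM, which removed Spry1, Phlda1, Dusp9 and Fosl1. The log2 fold change of Etv4 was 2.16 in limma on log2(CPM + 1), where the added 1 lowers the fold of a gene of 3 CPM. With the longest transcript as length, 5 of 9 members kept their rank. Replicate numbers did not pair the libraries (r of deviations 0.12, -0.02, -0.06 and 0.18 for numbers 1 to 4). With the replicate number as a block, 4 members, 13 and 17 pathway genes and 2367 genes in all were called; Dusp5 was then called (adjusted p = 0.0401) and Phlda1 was not (0.0532). At this depth the fold changes of Etv4, Spry1, Phlda1, Dusp9 and Fosl1 rest on few counts per library.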

Other observations

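Within the groups, Etv4 was also set beside the pathway genes, and the genes named here were chosen after their values were seen. Deviations of log2 CPM from the group mean over 8 libraries gave an r of 0.82 with Dusp1 (rho = 0.69), 0.80 with Ier2 (rho = 0.76) and 0.72 with Egr1 (rho = 0.76), which are immediate early genes, and -0.71 with Cic (rho = -0.76), the repressor of PEA3 genes. Without the 2 libraries most extreme for Etv4 these values were 0.31, 0.50, 0.34 and -0.40. With Cic, the r of Etv5, the other PEA3 gene, was -0.000735 (rho = -0.048). Among the other members it was -0.84 for Spry1, -0.72 for Dusp6, -0.24 for Phlda1 and -0.075 for Dusp5. It was 0.67 for Spred2, 0.63 for Spry2 and 0.53 for Spred1. The libraries share their preparation, and no test was made. Myc, a target of many mitogenic signals, had a log2 fold change of -0.62 and was not called (edgeR adjusted p = 0.0936). All aggressive AML libraries (at most 175.7 CPM) lay below all new AML libraries (at least 184.8 CPM). Myc was lowest, at 51.6 CPM, in aggressive AML replicate 3, the library that was also lowest in its group for Etv5, Dusp5 and Phlda1.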
